A study of Mus musculus with 46 samples.

Results

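The genes described here are endothelial and vascular genes of the fetal mouse gonad, measured at stage E12.5 in bulk RNA of whole gonads after poly(A) selection. The list named 34 genes, and 33 of them were rows of the count and TPM tables, out of 33331 gene rows in all. Sox17os was not found under that name and is not analysed here. The 33 genes were 19 general endothelial genes, 5 arterial genes, 4 receptors of veins and lymphatic vessels and 5 ligands. All 33 passed the filter on low counts when it was applied over all groups.

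Blood vessels are lined by endothelial cells, which hold together through adhesion proteins such as VE-cadherin and respond to vascular endothelial growth factors and angiopoietins through receptor tyrosine kinases. Arterial and venous endothelial cells carry different guidance molecules, with ephrin-B2 on arteries and its receptor EphB4 on veins. In mouse, endothelial cells move from the adjoining mesonephros into the early XY gonad and form a coelomic artery that the ovary lacks, so arterial genes are often read as part of testis formation.

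The embryos carried mutations in Enh13, a remote enhancer of the testis gene Sox9, and the study compared them with wild type in both sexes. Among XX embryos, wild type and the heterozygotes of the 1bp-ins and the 3bp-del allele had 3 libraries each, and homozygotes of 1bp-ins, of 3bp-del and of a genotype labelled 3bp-12bp-del had 5 each. XY embryos matched them group by group, except that 3bp-12bp-del had 3 libraries. What 3bp-12bp-del stands for is not said by the labels, which call it homozygous. They also do not say whether replicates were separate animals. Each p-value therefore measures the spread between those of the 46 libraries that its fit used, within the groups compared unless all groups are named.

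Sox9 itself was 9.38 ± 2.31 CPM (counts scaled to library size by TMM, mean ± SD) in wild-type XX gonads, 171 ± 31.2, 181 ± 23 and 215 ± 40.8 CPM in the XX homozygotes in the order above, and 136 ± 43.4 CPM in wild-type XY gonads. Each library held between 29909111 and 46150400 estimated counts. Markers of the neighbouring mesonephros stood apart in replicate 3 of wild-type XY, at a summed 219 CPM against 12.9 to 119 CPM in the other 45 libraries, and the same library had the highest summed pericyte level, 665 CPM. Markers of the adrenal stood apart in replicate 1 of wild-type XX, at a summed 180.2 CPM against 3.52 to 67.0 CPM elsewhere. Replicate 4 of the XX 3bp-del homozygotes, second in mesonephros markers at 119 CPM, and replicate 1 of the XY 3bp-del heterozygotes, second in adrenal markers at 67.0 CPM, were left out together with them in an alternative chosen after seeing the data, below called the fit without the 4 libraries.

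Endothelial genes were present in every library. On the TPM scale, which corrects for gene length, the mean over all libraries was highest for Ramp2, the partner protein of the adrenomedullin receptor, at 103. Ephb4, the venous ephrin receptor, followed at 67.3, Plvap, the diaphragm protein of fenestrated capillaries, at 63.5 and Cdh5, which encodes VE-cadherin, at 52.9. Efnb2, which encodes ephrin-B2, was the highest of the arterial genes at 30.7 TPM and the gap-junction gene Gja5 the lowest at 5.22. The 5 ligand genes spread from 26.4 TPM for Vegfa to 0.888 TPM for Angpt2, the lowest of the 33, which fell to 6 estimated counts in 1 library. Spread between groups differed by gene, also on the TPM scale. The highest group mean exceeded the lowest by 1.23-fold for Ecscr, an endothelial surface protein, and by 1.93-fold for Efnb2. For Nrp2 it was 2.55-fold and for Angpt2, the widest, 5.5-fold. In whole-gonad RNA, fewer cells of a type and less RNA per cell cannot be told apart.

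The 250 bases upstream of the annotated transcript start are shown for Efnb2 and Unc5b, 2 arterial genes that moved in opposite directions in XX homozygotes. The sequences are from RefSeq GRCm38.p6, on the minus strand, written 5′ to 3′, for Efnb2 at chr8:8661243-8661492 and for Unc5b at chr10:60831582-60831831. Capitals mark a match to CCGGAA, the core of many ETS factor sites, or to its reverse complement.
Efnb2: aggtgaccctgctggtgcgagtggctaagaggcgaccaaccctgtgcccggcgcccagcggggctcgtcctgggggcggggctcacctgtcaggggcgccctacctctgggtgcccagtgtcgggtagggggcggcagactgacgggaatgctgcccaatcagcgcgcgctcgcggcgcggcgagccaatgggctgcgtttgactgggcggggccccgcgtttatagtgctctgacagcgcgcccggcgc
Unc5b: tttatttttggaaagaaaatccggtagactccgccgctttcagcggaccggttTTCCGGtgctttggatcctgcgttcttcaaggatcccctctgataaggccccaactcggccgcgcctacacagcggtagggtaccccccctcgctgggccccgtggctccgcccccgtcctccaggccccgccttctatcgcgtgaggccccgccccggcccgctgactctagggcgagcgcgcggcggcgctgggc
The 2 motifs, which do not contain each other, were searched on both strands: CCGGAA and ACAAT, the core of many SOX factor sites. The Efnb2 window held neither, and the Unc5b window held CCGGAA once and ACAAT not at all. Of 32851 windows of this length, 12.03% held CCGGAA and 27.66% held ACAAT. A window was available for 21 of the 33 genes, of which Tek, Emcn, Robo4 and Gja4 held ACAAT and Kdr and Unc5b held CCGGAA.

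Efnb2 (mm10 chr8:8617434-8661242, minus strand) was higher in the XX homozygotes of all 3 genotypes than in wild-type XX gonads. It measured 71.1, 66.4 and 70.7 CPM in wild-type XX libraries. The 1bp-ins homozygotes had 100.8, 106, 114, 92.2 and 102 CPM, the 3bp-del homozygotes 97.8, 107, 103, 107 and 102 CPM and the 3bp-12bp-del homozygotes 105, 115, 100.5, 125 and 119.9 CPM. Every homozygous XX library lay above every wild-type XX library, so these groups did not overlap. The log2 fold changes were 0.57 ± 0.07 (adjusted p = 0.00109), 0.55 ± 0.05 (adjusted p = 4.86e-05) and 0.71 ± 0.08 (adjusted p = 0.000353), mean ± SE by edgeR's quasi-likelihood test with Benjamini-Hochberg adjustment over all genes tested, which is the test behind each adjusted p below. No single library removed these calls, and they held without the 4 libraries, at 0.59, 0.59 and 0.73.

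The XX heterozygotes overlapped wild type at Efnb2. The 1bp-ins heterozygotes had 59.8, 77.5 and 75.2 CPM and the 3bp-del heterozygotes 69.5, 68 and 71.8 CPM, with log2 differences from wild type of 0.02 ± 0.10 (adjusted p = 0.965) and -0.01 ± 0.05 (adjusted p = 0.915) by edgeR. Homozygotes exceeded heterozygotes of the same allele by 0.53 ± 0.10 (adjusted p = 0.011) for 1bp-ins and 0.57 ± 0.05 (adjusted p = 5.63e-05) for 3bp-del on the log2 scale by edgeR.

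Efnb2 was higher in XY than in XX gonads of wild type and of both heterozygotes. Wild-type XY libraries had 112, 99.2 and 159 CPM, the highest in the library rich in mesonephros markers, 1bp-ins heterozygotes 109, 119 and 117 CPM and 3bp-del heterozygotes 121, 93.4 and 105 CPM. These XY libraries all lay above the XX libraries of the same genotype. The log2 differences XY over XX were 0.80 ± 0.16 (adjusted p = 0.025) in wild type, 0.69 ± 0.10 (adjusted p = 0.000629) in 1bp-ins heterozygotes and 0.62 ± 0.10 (adjusted p = 0.00164) in 3bp-del heterozygotes by edgeR. The wild-type call was lost by edgeR without replicate 1 of wild-type XY (0.86, adjusted p = 0.0616) and without replicate 1, 2 or 3 of wild-type XX (0.82, 0.76 and 0.82), and without replicate 3 of wild-type XY it was 0.59 ± 0.07 (adjusted p = 0.000497).

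In homozygotes of all 3 genotypes the XY and XX ranges of Efnb2 overlapped. XY homozygotes had 96.5, 106, 89.8, 94.4 and 93 CPM for 1bp-ins, 127, 86.7, 88.3, 94.2 and 87.9 CPM for 3bp-del and 115, 121 and 85.1 CPM for 3bp-12bp-del. The log2 differences XY over XX were -0.12 ± 0.06 (adjusted p = 0.264), -0.11 ± 0.10 (adjusted p = 0.414) and -0.09 ± 0.12 (adjusted p = 0.691) by edgeR, none called, and a missed threshold does not show that the sexes had equal levels. Against wild type of the same sex, Efnb2 was higher in XX homozygotes. In XY homozygotes all 3 group means lay below wild-type XY, and none was called. The interaction, XX effect minus XY effect, was 0.92 ± 0.16 (adjusted p = 0.0102) for 1bp-ins and 0.91 ± 0.20 (adjusted p = 0.0211) for 3bp-del by edgeR. For 3bp-12bp-del, 0.91 ± 0.22 (adjusted p = 0.0863) did not pass by edgeR. These fits use wild-type XY replicate 3, the highest of its group at 159 CPM. The fits without the 4 libraries are given below.

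**Figure D1:**
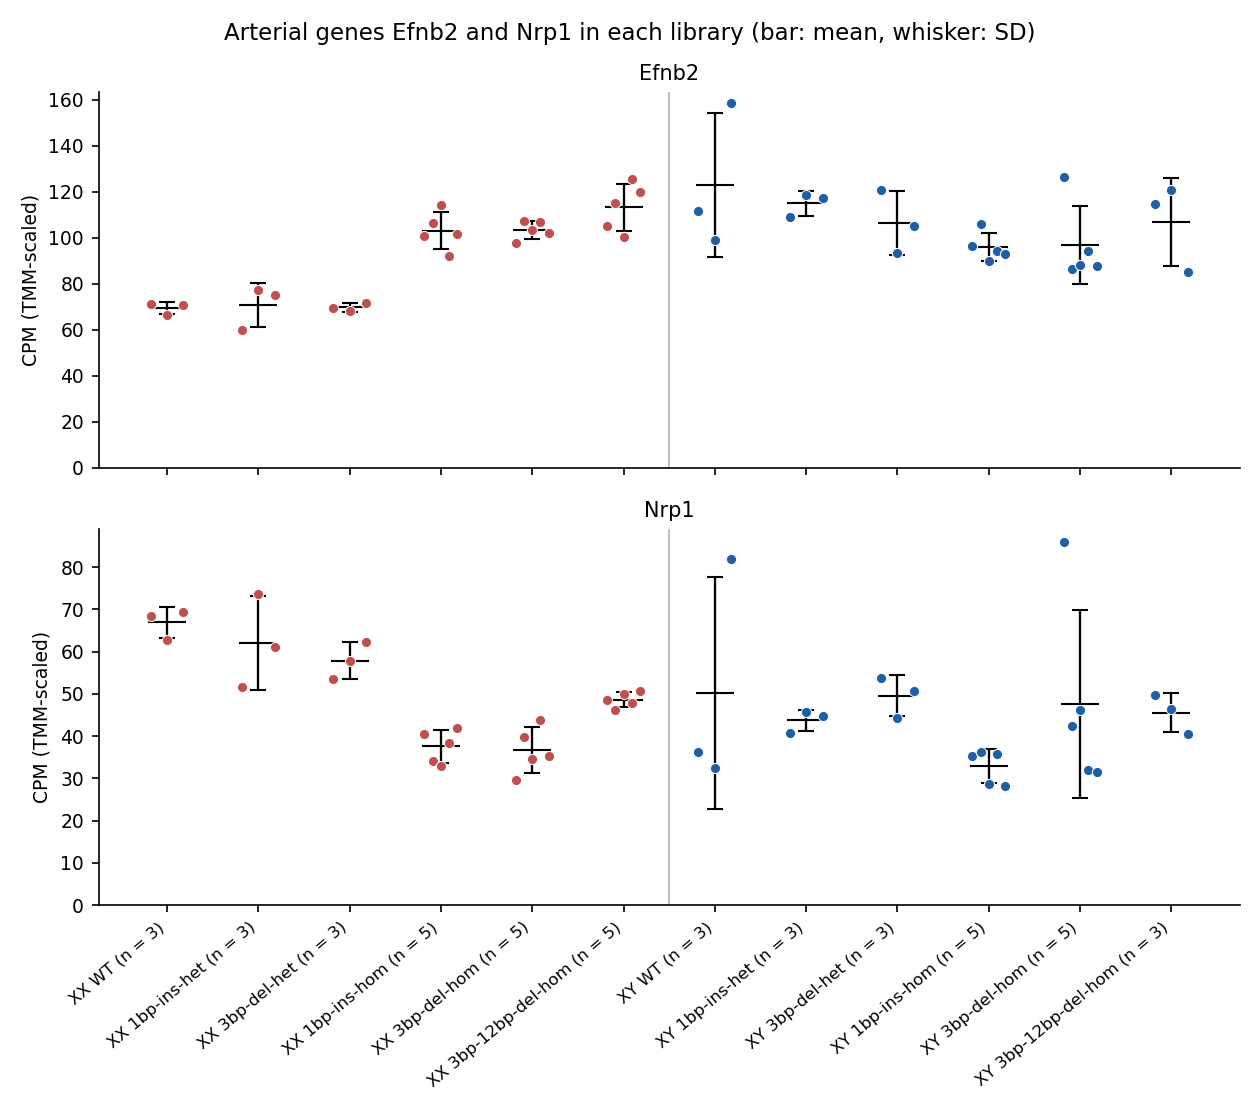
CPM of Efnb2 (top) and Nrp1 (bottom) in each of the 46 libraries by sex and genotype, with the group mean as a bar and the SD as a whisker. Efnb2 in homozygous XX libraries lies between 92.2 and 125 CPM, above wild-type XX, and Nrp1 in the same libraries lies below wild-type XX.

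Nrp1 (mm10 chr8:128358604-128503363, plus strand), which encodes neuropilin-1, a co-receptor for VEGF-A and semaphorins, was lower in the same XX homozygotes. Wild-type XX libraries had 68.5, 62.8 and 69.4 CPM. The 1bp-ins homozygotes had 40.4, 34.1, 32.8, 38.4 and 42 CPM, the 3bp-del homozygotes 29.7, 39.8, 34.6, 43.9 and 35.3 CPM and the 3bp-12bp-del homozygotes 48.5, 46.18, 50.03, 47.9 and 50.6 CPM. All 15 homozygous XX libraries lay below the 3 wild-type XX libraries. The log2 fold changes were -0.84 ± 0.09 (adjusted p = 0.000778), -0.89 ± 0.11 (adjusted p = 0.000206) and -0.46 ± 0.06 (adjusted p = 0.000552) by edgeR, and against heterozygotes they were -0.74 ± 0.12 (adjusted p = 0.00702) for 1bp-ins and -0.66 ± 0.11 (adjusted p = 0.00221) for 3bp-del. With all groups in 1 fit the 3bp-12bp-del call was lost, at -0.46 ± 0.22 (adjusted p = 0.132) by edgeR. An exon of Nrp1 overlaps the microRNA gene Mir1903. Wild-type XY libraries had 36.3, 32.5 and 81.9 CPM, of which the first and the second lay below wild-type XX and the third, rich in mesonephros markers, above it. The wild-type sex difference was -0.45 ± 0.33 (adjusted p = 0.432) with all libraries and -0.97 ± 0.08 (adjusted p = 7.39e-05) without that one by edgeR. Among XY 3bp-del homozygotes, which had 85.8, 42.4, 46.3, 32.1 and 31.4 CPM, replicate 1 stood above the other 4, and its Efnb2 was also the highest of its group.

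Unc5b (mm10 chr10:60762593-60831581, minus strand), a netrin receptor of arterial and sprouting endothelium, fell in 3 of the 5 XX mutant groups. It was 83.6, 88.5 and 83.5 CPM in wild-type XX libraries, 63.6, 61.3 and 64.8 CPM in 3bp-del heterozygotes and 47.8, 57, 48.2, 42.6 and 47.5 CPM in 3bp-del homozygotes. These 3 groups did not overlap. Against wild type Unc5b changed by -0.45 ± 0.05 (adjusted p = 0.00452) in the heterozygotes and -0.84 ± 0.08 (adjusted p = 4.64e-05) in the homozygotes, and homozygotes differed from heterozygotes by -0.38 ± 0.08 (adjusted p = 0.00612) by edgeR. It was the 1 member called in 3bp-del heterozygotes, where 10.9% of all genes tested were called, 4.78% higher and 6.15% lower, and the count was 2 without heterozygote replicate 3 and 3 without replicate 1 of wild-type XX. With all groups in 1 fit the heterozygote call was lost, at -0.43 ± 0.17 (adjusted p = 0.126) by edgeR. The 3bp-12bp-del homozygotes had 70.1, 61.9, 69.8, 73.8 and 74.7 CPM and a change of -0.28 ± 0.07 (adjusted p = 0.0114), no longer called by edgeR without replicate 2 of wild-type XX at -0.26 ± 0.08 (adjusted p = 0.0582) or with all groups in 1 fit at -0.28 ± 0.15 (adjusted p = 0.186). In 1bp-ins homozygotes, 65, 45.3, 53.2, 57.4 and 84.5 CPM, replicate 5 reached the wild-type range and the difference of -0.48 ± 0.18 (adjusted p = 0.0673) was not called by edgeR.

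The connexin genes Gja4 and Gja5, which form gap junctions of arterial endothelium, were not called in any XX mutant group. Gja4 was 14.4, 15.6 and 17.4 CPM in wild-type XX libraries and 16.7, 16.6, 13.9, 14.4 and 27.2 CPM in 1bp-ins homozygotes. The 3bp-del homozygotes had 14.4, 18.6, 16, 9.07 and 15.6 CPM and the 3bp-12bp-del homozygotes 13.5, 12.9, 17.5, 18 and 16.4 CPM, and all 3 groups overlapped wild type. Gja5 spread further within groups, with 8.77, 9.57 and 7.6 CPM in wild-type XX libraries and 12.4, 9.13, 5.11, 9.75 and 31.4 CPM in 1bp-ins homozygotes. Replicate 5 of the latter was the highest for both genes, and it also stood apart at Amh, a Sertoli cell gene, with 870.5 CPM against 18.4 to 138 CPM in the other 4, and at Foxl2, an ovarian granulosa gene, with 4.29 CPM against 9.76 to 18.3 CPM. Both genes were chosen after their values were seen, and the part of this difference in the results was not tested. The Gja5 log2 differences from wild type ran from -0.35 ± 0.21 in 3bp-del homozygotes to 0.65 ± 0.54 in 1bp-ins homozygotes, and its exons overlap Gpr89 on the opposite strand.

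The 5 arterial genes therefore split by gene, with Efnb2 up, Nrp1 and, in 2 genotypes, Unc5b down, and the connexin genes uncalled. A score per library, the mean log2 CPM of the arterial genes minus that of the general endothelial genes, was -0.20 ± 0.01 in wild-type XX gonads (SD, n = 3). It was -0.04 ± 0.29 in 1bp-ins, -0.32 ± 0.06 in 3bp-del and -0.14 ± 0.09 in 3bp-12bp-del XX homozygotes. The difference from wild type was 0.16, -0.12 and 0.06, and its sign depended on how the arterial genes were combined. With the median over each list in place of the mean it was -0.68, -0.71 and -0.27, and with Efnb2, Gja4 and Gja5 alone it was 0.58, 0.23 and 0.27. The 1bp-ins difference was 0.04 without homozygote replicate 5, which scored 0.465, and the 3bp-12bp-del difference was 0.03 without homozygote replicate 3 and 0.04 without replicate 4. In wild-type XY gonads the score was -0.17 ± 0.10 (n = 3), which overlapped wild-type XX.

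**Figure D2:**
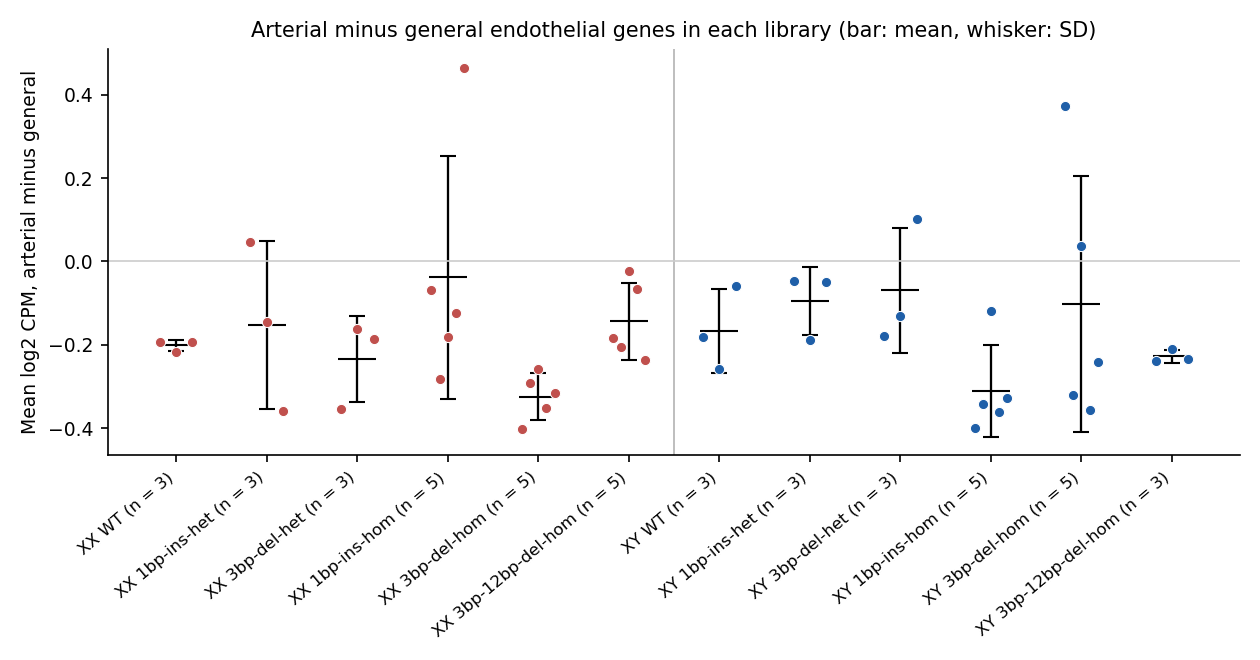
The arterial minus general endothelial score (log2 CPM) in each library by sex and genotype, with the group mean as a bar and the SD as a whisker. Most groups overlap, and replicate 5 of the XX 1bp-ins homozygotes, at 0.465, is the highest of all libraries.

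General endothelial genes were mostly lower or uncalled in XX homozygotes. In 3bp-del homozygotes, where 44.8% of all genes tested were called, 21.6% higher and 23.1% lower, 18 of the 33 members fell and 3 rose. Among the 19 general genes 11 fell, namely Cdh5, the VEGF receptors Kdr and Flt1, the angiopoietin receptor Tek and its relative Tie1, the ETS factor Erg, Egfl7, the guidance receptor Robo4, the matrix protein Mmrn2, the sphingosine receptor S1pr1 and the BMP receptor Acvrl1. The median log2 fold change was -0.33 over the members, against -0.03 over all genes tested. Emcn, Esam, Cldn5, Fli1, Eng and Ecscr were not called, with differences between -0.21 for Fli1 and 0.09 for Ecscr.

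Tek measured 34.4, 35.3 and 32 CPM in wild-type XX libraries and 22.3, 23, 20.9, 19.5 and 22.5 CPM in 3bp-del homozygotes. No library of these groups overlapped, and the log2 fold change was -0.68 ± 0.07 (adjusted p = 6.05e-05) by edgeR. Kdr, the main VEGF-A receptor, went from 159, 199.99 and 179.7 to 111, 136, 122, 109 and 112 CPM, again without overlap, a change of -0.63 ± 0.09 (adjusted p = 0.000316) by edgeR. Tie1 changed by -0.58 ± 0.08, Flt1 by -0.60 ± 0.09 and Cdh5 by -0.33 ± 0.08. By edgeR the calls of Erg, Robo4 and Mmrn2 were lost without replicate 2 of wild-type XX, at -0.21, -0.30 and -0.36, and that of Mmrn2 also without replicate 3, at -0.36. With all groups in 1 fit edgeR no longer called Cdh5 (adjusted p = 0.0951), Egfl7 (0.123), Erg (0.221) or Robo4 (0.0883).

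In 1bp-ins homozygotes 9 of the 33 members fell and 2 rose, where 32.3% of all genes tested were called, 17.2% higher and 15.1% lower. The general genes that fell were Kdr, Flt1, Tek, Tie1, Erg and Robo4. Tie1 was 79.1, 80.9 and 85.1 CPM in wild type and 68.6, 56.8, 47.5, 58 and 63.5 CPM in the homozygotes, without overlap, a change of -0.48 ± 0.10 (adjusted p = 0.00873) by edgeR. Robo4 changed by -0.44 ± 0.08 (adjusted p = 0.00455) and Kdr by -0.51 ± 0.12 (adjusted p = 0.0127), the latter with replicate 1 level with the lowest wild-type library, both at 159 CPM. The count of 11 members called depended on the wild-type libraries and was 7, 5 and 7 without replicate 1, 2 or 3 of wild-type XX. By edgeR the calls of Kdr and Tek were lost without replicate 2 (-0.42 and -0.37), Tek also without replicate 1 (-0.39), and Flt1 and Erg without any 1 of the 3 (-0.44 and -0.26 without replicate 2). Flt1 was also lost without homozygote replicate 2, 3 or 4 (-0.46, -0.39 and -0.40) and Erg without homozygote replicate 1, 3 or 4 (-0.32, -0.27 and -0.30).

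The 3bp-12bp-del homozygotes had fewer calls at these genes, with 4 members lower and 2 higher, where 25.6% of all genes tested were called, 14.6% higher and 11% lower. S1pr1 was the 1 general gene that fell, at -0.32 ± 0.08 (adjusted p = 0.0145) with edgeR, a call that did not hold without wild-type XX replicate 1 or 3 (-0.29 in either case). The median over the members was -0.11. The count of 6 members fell to 3 without replicate 1 or replicate 2 of wild-type XX.

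Ramp2 ran against the other general genes. It was 34.4, 35.1 and 39.8 CPM in wild-type XX libraries, 43.1, 53, 49.1, 45 and 49.4 CPM in 1bp-ins and 58.9, 52, 58, 44.8 and 53 CPM in 3bp-del homozygotes, with no overlap with wild type. Its changes were 0.39 ± 0.08 (adjusted p = 0.00694) and 0.52 ± 0.09 (adjusted p = 0.000972) by edgeR. Ramp2 shares exon sequence with Vps25 on the same strand, so reads from the genes could be split between them and its values are uncertain. Plvap rose in 3bp-del homozygotes by 0.31 ± 0.11 (adjusted p = 0.0414) with edgeR, but its groups overlapped and the call was lost without any 1 wild-type library and without homozygote replicate 1, 2, 3 or 5, with values from 0.25 to 0.33.

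Some markers of other cell types also changed in the XX homozygotes, and their part in the results was not tested. For comparison, 15.1%, 23.1% and 11% of all genes tested were lower in the 3 genotypes, in the order used above. The shares of all genes called higher were 17.2%, 21.6% and 14.6%. Of 8 pericyte markers, genes of the cells that wrap small vessels, 3, 4 and 5 fell in the XX homozygotes of the 3 genotypes, among them Notch3 at -0.76 ± 0.25, -1.13 ± 0.12 and -0.57 ± 0.09. Their summed level was 386 to 444 CPM in wild-type XX libraries and 287 to 445, 273 to 334 and 301 to 379 CPM in those homozygotes. Of 9 macrophage markers 2, 4 and 5 fell, and the sum went from 80.7 to 112 CPM in wild type to 43.8 to 93.0, 48.8 to 81.5 and 50.8 to 74.7 CPM. Of 8 erythroid genes 3, 1 and 1 rose, with a sum of 3031 to 6066 CPM in wild type, 5805 to 8738 CPM in 1bp-ins, 4373 to 7283 CPM in 3bp-del and 3574 to 5265 CPM in 3bp-12bp-del homozygotes. The mesonephros sum was 47.0 to 79.7 CPM in wild-type XX libraries, 21.2 to 37.4 CPM in 1bp-ins, 26.5 to 119 CPM in 3bp-del and 19.8 to 32.1 CPM in 3bp-12bp-del homozygotes.

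**Figure D3:**
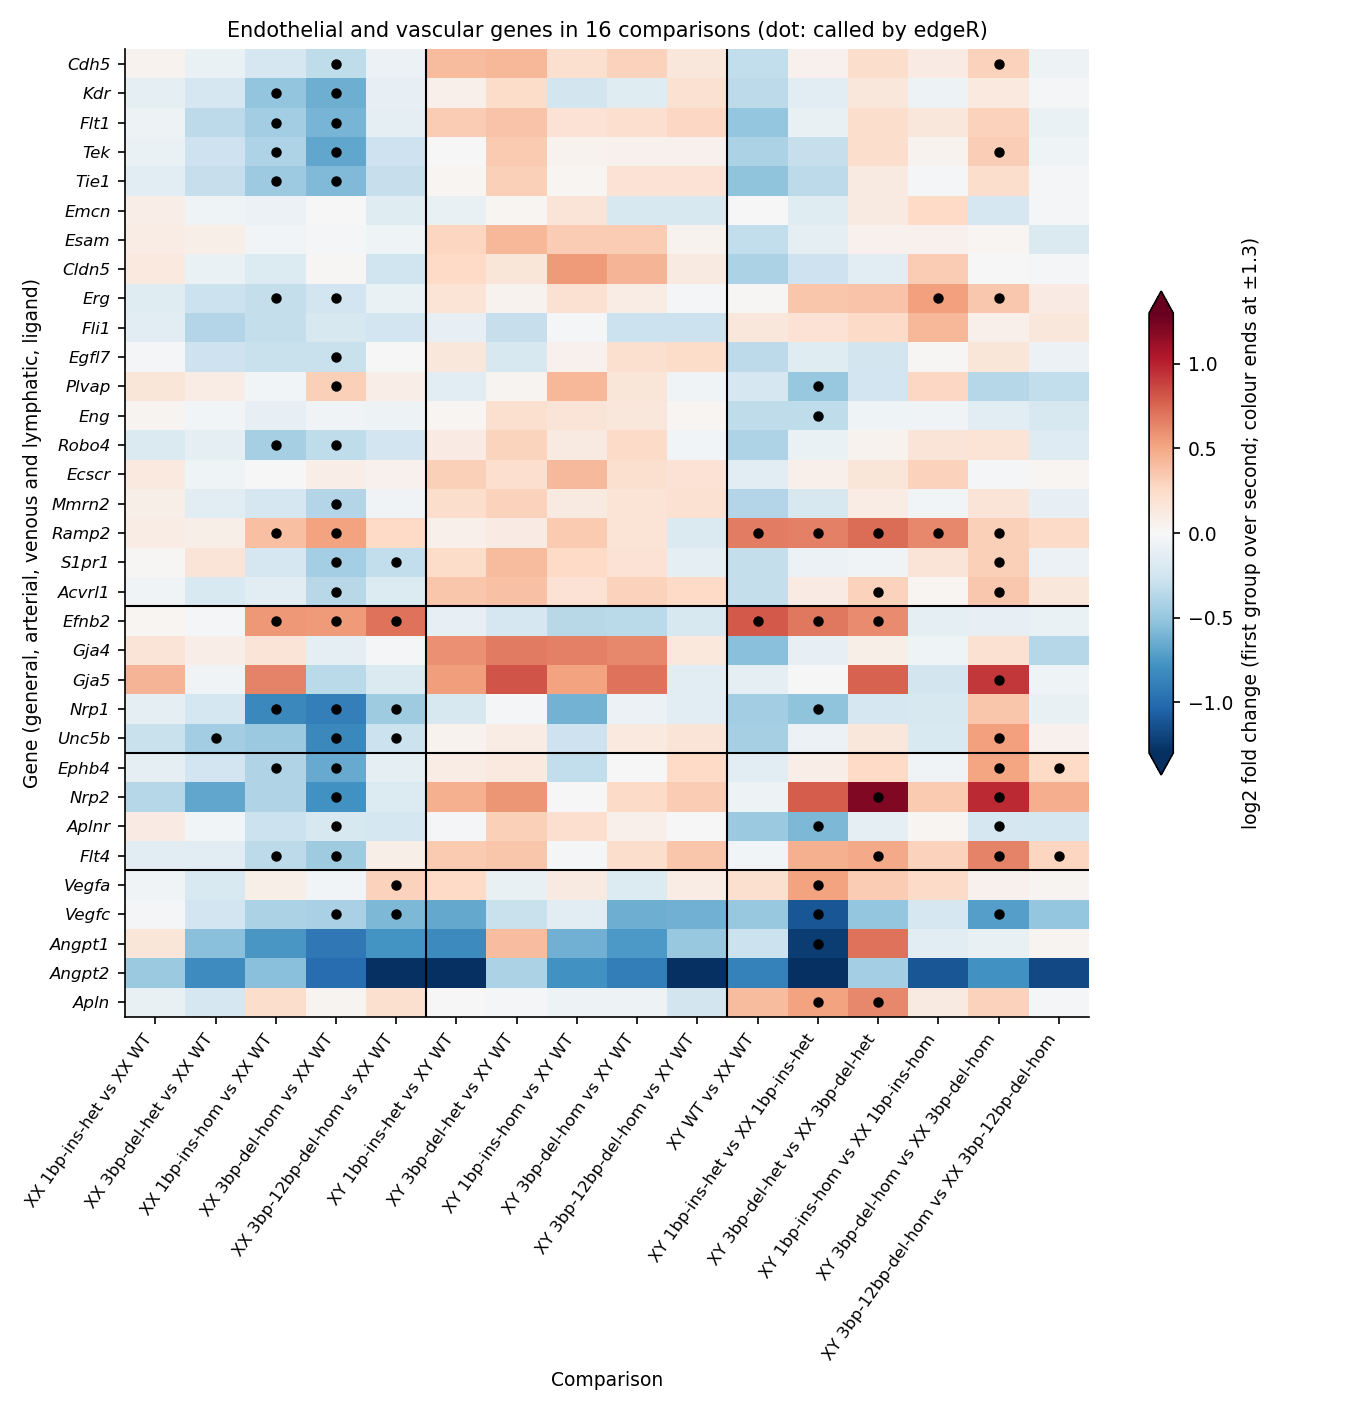
Log2 fold change of the 33 genes (rows, by list) in 16 comparisons (columns: XX mutants over wild-type XX, XY mutants over wild-type XY, and XY over XX of the same genotype), with a dot where edgeR called the gene. The dots gather in the XX 3bp-del homozygotes, with 21, and none stands in the 5 XY mutant columns.

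Among the receptors of veins and lymphatic vessels all 4 fell in 3bp-del XX homozygotes, where 23.1% of all genes tested were lower, and with the length trend removed Ephb4 alone of the 4 stayed called. Ephb4 was 199.8, 221 and 234 CPM in wild-type XX libraries and 138, 152, 136, 135 and 143 CPM in the homozygotes. The groups were far apart, and the change was -0.66 ± 0.06 (adjusted p = 4.67e-05) by edgeR, with -0.40 ± 0.06 against heterozygotes. Ephb4 also fell in 1bp-ins homozygotes, at -0.40 ± 0.10 (adjusted p = 0.0175) with edgeR, a call lost without replicate 2 or 3 of wild-type XX (-0.38 and -0.35). Its exons overlap Zan on the opposite strand.

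Flt4, the receptor for VEGF-C and a marker of lymphatic endothelium, was 29.2, 29.4 and 29 CPM in wild-type XX and 23.6, 22.5, 22.2, 18 and 21.8 CPM in 3bp-del XX homozygotes. All 5 homozygous libraries were lower, a change of -0.46 ± 0.08 (adjusted p = 0.00102) by edgeR. In 1bp-ins homozygotes it changed by -0.34 ± 0.11 (adjusted p = 0.0443), a call lost by edgeR without any 1 wild-type library (-0.34, -0.33 and -0.35) and without homozygote replicate 3 or 5 (-0.33 and -0.34). Nrp2, its co-receptor, was 73.9, 41.6 and 41 CPM in wild-type XX and 31.9, 33.9, 28.8, 28.5 and 30.9 CPM in 3bp-del XX homozygotes, a change of -0.79 ± 0.19 (adjusted p = 0.0089) by edgeR. The high wild-type value was in replicate 1, the library with adrenal markers, and without the 4 libraries the change was -0.39 ± 0.08 (adjusted p = 0.00122). Aplnr, the apelin receptor, changed by -0.21 ± 0.07 (adjusted p = 0.0265), with overlapping groups, and was -0.07 ± 0.06 (adjusted p = 0.344) without the 4 libraries. By edgeR its call was also lost without replicate 1 of wild-type XX alone (-0.14) and without homozygote replicate 1, 3 or 4 (-0.20, -0.20 and -0.14).

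**Figure D4:**
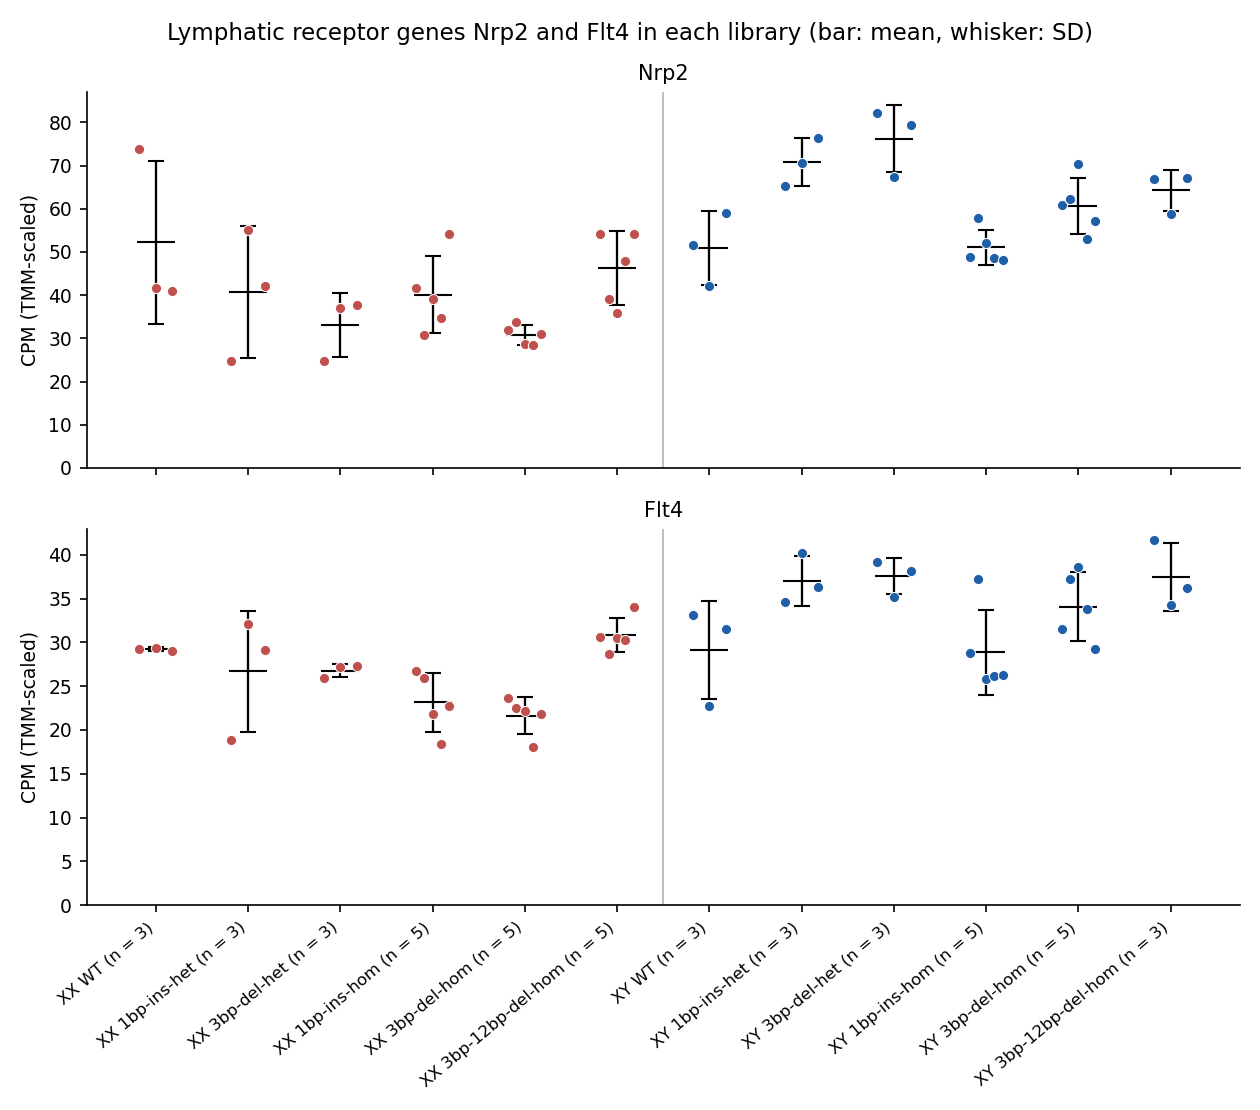
CPM of Nrp2 (top) and Flt4 (bottom) in each library by sex and genotype, with the group mean as a bar and the SD as a whisker. In every mutant genotype but the 1bp-ins homozygotes every XY library lies above every XX library for both genes, for example Nrp2 at 53.1 CPM or more against 33.9 CPM or less in 3bp-del homozygotes. In wild type the sexes overlap for both genes.

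Few ligand genes were called in XX mutants. Vegfa, which encodes the main endothelial growth factor, was called in 1 XX mutant group, the 3bp-12bp-del homozygotes, at 52.7, 53.7, 66, 47.6 and 50.5 CPM against 41.4, 45.1 and 45.7 CPM in wild type. Each homozygous library was above wild type, but the call of 0.30 ± 0.10 (adjusted p = 0.0455) by edgeR was lost without any 1 wild-type library (0.26 to 0.32) and without homozygote replicate 1, 2 or 5 (0.31, 0.30 and 0.30). Vegfc, the lymphatic growth factor, was 7.03, 6.98 and 7.44 CPM in wild-type XX, 5.59, 5.04, 4.93, 4.95 and 6.66 CPM in 3bp-del and 5.82, 3.31, 6.11, 4.14 and 4.49 CPM in 3bp-12bp-del homozygotes. It was lower in both without overlap, at -0.42 ± 0.13 (adjusted p = 0.0205) and -0.58 ± 0.19 (adjusted p = 0.0446) with edgeR. The first call was lost without replicate 2 or 3 of wild-type XX (-0.44 and -0.40). The second was lost without any 1 wild-type library and without homozygote replicate 2, 4 or 5, with values from -0.60 to -0.48. Angpt1 and Angpt2, the ligands of Tek, and Apln, the ligand of Aplnr, were not called in any XX mutant group. Angpt2 was low and variable, with 5.52, 2.77 and 1.39 CPM in wild-type XX and 0.936, 0.75, 1.42, 1.58 and 1.95 CPM in 3bp-12bp-del homozygotes. The difference was -1.29 ± 0.43 (adjusted p = 0.0533) by edgeR. Angpt1 differed by -0.93 ± 0.34 (adjusted p = 0.0554) in 3bp-del homozygotes by edgeR, with 17, 11 and 7.51 CPM in wild-type XX. The highest wild-type XX value of both genes was in replicate 1, the library with adrenal markers. The part of adrenal tissue in these differences was not tested.

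Fold change followed gene length in the XX homozygotes, over the members as over all genes, and also in some other mutant groups. Length here is the ratio of counts to TPM for each gene relative to the median gene, and it ran from 0.33 for Ramp2 to 2.82 for Flt1. Across the 33 genes Spearman's rho of log2 fold change with length was -0.525 in 1bp-ins, -0.609 in 3bp-del and -0.200 in 3bp-12bp-del XX homozygotes, against -0.388, -0.476 and -0.218 across all genes tested. The points share libraries and a normalization and are not independent. In the XX homozygotes 8, 13 and 2 of the 16 longer members were called lower, and 1, 5 and 2 of the 17 shorter ones. Of all genes tested 15.1%, 23.1% and 11% were called lower, a share not split by length here.

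With the trend of fold change with length over all genes removed, 5, 11 and 4 members were called lower and 1, 2 and 2 higher. Of all genes tested 21.4%, 35.1% and 25.2% were called in either direction. Those called lower were 1373 of 16040, 2396 of 16031 and 1646 of 15957 genes. The members' rho was 0.044, -0.191 and 0.116. Efnb2, one of the longer genes at 2.03 times the median, lay against the trend, and its change became 0.76 ± 0.08 (adjusted p = 0.00151), 0.82 ± 0.04 (adjusted p = 6.93e-06) and 0.77 ± 0.09 (adjusted p = 0.0005) by edgeR. Nrp1 stayed called at -0.75 ± 0.08, -0.75 ± 0.10 and -0.43 ± 0.06. In 3bp-del homozygotes Kdr, Tek, Tie1, Erg, Egfl7, S1pr1, Acvrl1, Unc5b, Ephb4 and Vegfc also stayed lower, for example Tek at -0.43 ± 0.08 and Ephb4 at -0.43 ± 0.06. Cdh5 (-0.14), Flt1 (-0.18), Robo4 (-0.17), Mmrn2 (-0.18), Nrp2 (-0.38), Aplnr (-0.05) and Flt4 (-0.06) did not, nor did Plvap keep its higher call (0.24). Ramp2, the shortest, kept its call in 3bp-del homozygotes at 0.27 ± 0.07 (adjusted p = 0.0156) but not in 1bp-ins homozygotes at 0.19 ± 0.07 (adjusted p = 0.0912) by edgeR. In 1bp-ins homozygotes Tie1, Erg, Egfl7, Robo4 and Nrp1 were lower with the trend removed, while Kdr was -0.22, Flt1 -0.12, Tek -0.23, Ephb4 -0.25 and Flt4 -0.03, none called. In 3bp-12bp-del homozygotes Unc5b was -0.18 and not called.

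**Figure D5:**
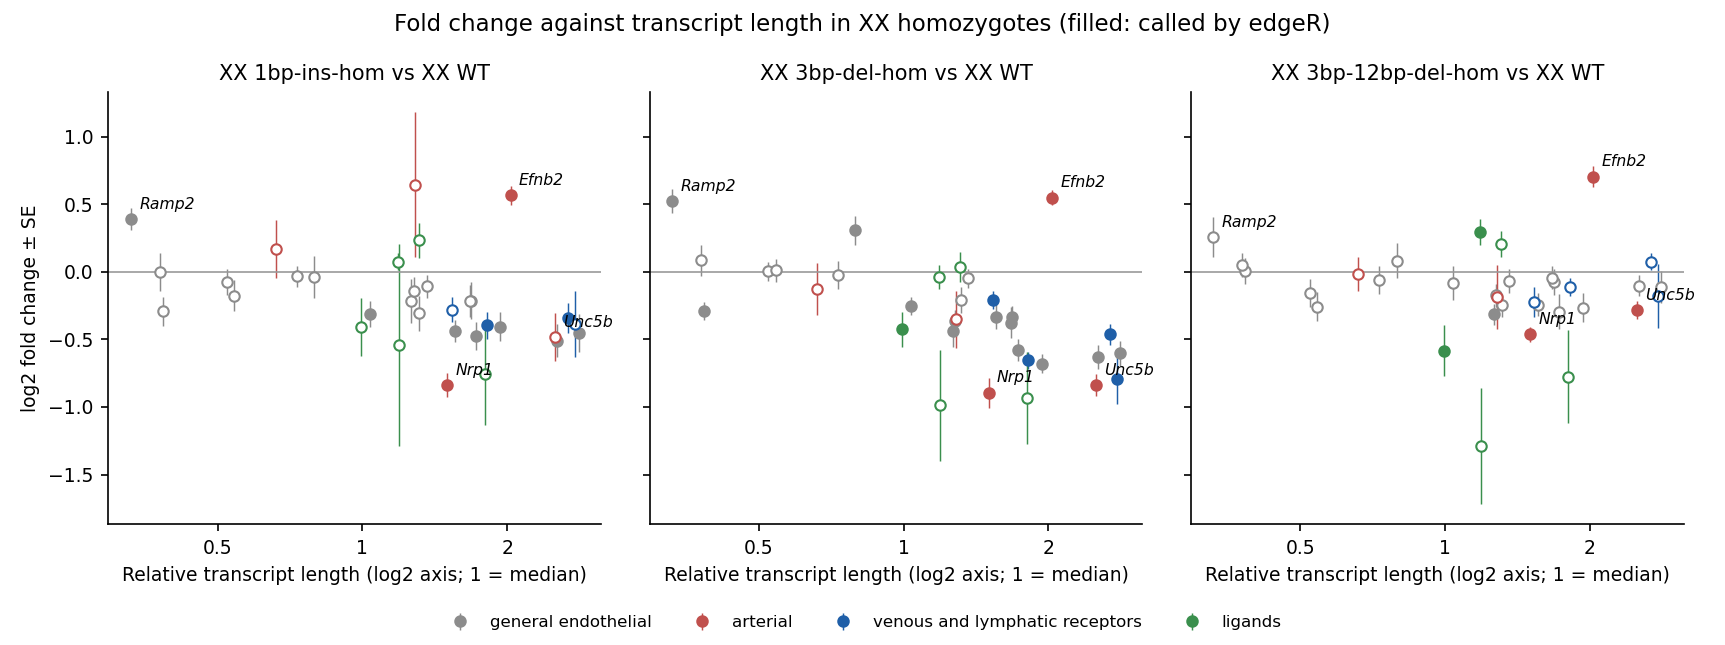
Log2 fold change ± SE of each of the 33 genes against relative transcript length (log2 axis, median gene at 1) in the XX homozygotes of each genotype over wild-type XX, coloured by list and filled where edgeR called the gene. Longer genes lie lower in the 1bp-ins and 3bp-del panels, with rho of -0.525 and -0.609, and Efnb2 lies above zero in all 3.

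Between wild-type XY and XX gonads 2 of the 33 members were called, Efnb2 (above) and Ramp2 at 0.67 ± 0.16 (adjusted p = 0.0416), both higher in XY by edgeR, where 11% of all genes tested were called, 5.1% higher and 5.94% lower. The Ramp2 call was lost without replicate 1 or 2 of wild-type XY (0.61 and 0.58) and without replicate 1, 2 or 3 of wild-type XX (0.63, 0.64 and 0.74). The count of 2 changed with every library left out. Without replicate 3 of wild-type XY, the one rich in mesonephros markers, 15 members were called, 4 higher and 11 lower in XY, where 43.3% of all genes tested were called. Without replicate 1 or 2 of wild-type XY it was 1 each, and without any 1 wild-type XX library 0. In the fit without replicate 3 Ramp2 was 0.83 ± 0.08 (adjusted p = 0.000134), Vegfa 0.23 ± 0.07 (adjusted p = 0.0297) and Apln 0.54 ± 0.13 (adjusted p = 0.00929) higher by edgeR. Unc5b was -0.62 ± 0.09 (adjusted p = 0.000925), Kdr -0.56 ± 0.11 (adjusted p = 0.00614) and Vegfc -0.83 ± 0.16 (adjusted p = 0.00373), all lower in XY by edgeR. Tek, Tie1, Cldn5, Egfl7, Eng, Mmrn2 and Ephb4 were also lower in that fit, from -0.67 for Tie1 to -0.32 for Ephb4.

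In XY mutants none of the 33 genes was called against wild-type XY by edgeR in any of the 5 groups, where 0, 0, 0, 0 and 0.013% of all genes tested were called in the 1bp-ins heterozygotes and homozygotes, the 3bp-del heterozygotes and homozygotes and the 3bp-12bp-del homozygotes. At an unadjusted p under 0.05 the counts of genes were 943, 2232, 740, 1722 and 1052, and DESeq2 called 1 member in the 3bp-del homozygotes and 0 in the others. The members' median log2 fold changes were 0.10, 0.12, 0.22, 0.16 and 0.05. Replicate 3 of wild-type XY widened the reference group, with Kdr at 134, 112 and 188 CPM and Unc5b at 61, 50.7 and 82.1 CPM, and without it edgeR again called no member. With all groups in 1 fit edgeR called 2 members higher in the 1bp-ins homozygotes, Cldn5 at 0.55 ± 0.15 (adjusted p = 0.0364) and Ecscr at 0.42 ± 0.13 (adjusted p = 0.0462), and 802 genes in all. In 1bp-ins heterozygotes of XX, 0 of 33 members and 0% of all genes were called by edgeR, with 1251 genes at an unadjusted p under 0.05 and 94 called by DESeq2.

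Homozygotes were also compared with heterozygotes of the same allele and sex. In XX 3bp-del gonads 7 members fell and 2 rose, where 27.1% of all genes tested were called, 14% higher and 13.1% lower. Ephb4 and Unc5b are given above, and Kdr changed by -0.40 ± 0.07 (adjusted p = 0.00263) and S1pr1 by -0.60 ± 0.11 (adjusted p = 0.00321) with edgeR. In XX 1bp-ins gonads Efnb2 rose and Nrp1 fell, as above, and no other member was called, where 17.3% of all genes were, 8.49% higher and 8.76% lower. That count of 2 was 4 without homozygote replicate 1, 5 without homozygote replicate 5 and 7 without heterozygote replicate 1.

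In XY 1bp-ins gonads 5 members fell from heterozygotes to homozygotes, where 12.6% of all genes were called, 4.96% higher and 7.6% lower. They were Efnb2, Nrp1, Unc5b, Ephb4 and Nrp2, all among the longer genes, and with the length trend removed none was called, where 0.904% of all genes were. Nrp2 was 65.3, 70.5 and 76.4 CPM in heterozygotes and 48.8, 57.8, 52.2, 48.5 and 48.1 CPM in homozygotes, without overlap, a change of -0.46 ± 0.07 (adjusted p = 0.00716) by edgeR, and -0.21 with the trend removed. Ephb4 changed by -0.41 ± 0.06 (adjusted p = 0.00668) with edgeR and by -0.28 with the trend removed. The count of 5 was 8 without homozygote replicate 2 and 2 without heterozygote replicate 2 or 3, where Efnb2 (-0.23), Nrp1 (-0.37) and Unc5b (-0.32) lost their calls. Efnb2 also lost its call without homozygote replicate 5 (-0.24). In XY 3bp-del gonads edgeR called 0 members and 0% of all genes, with 2981 genes at an unadjusted p under 0.05 and 4 members called by DESeq2.

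Between XY and XX gonads of the same mutant genotype, Nrp2 and Flt4 stood higher in XY without overlap in 4 of the 5 genotypes, all but the 1bp-ins homozygotes. The share of all genes without overlap was not counted. In wild type the sexes overlapped at both genes, and neither was called by edgeR. Wild-type Nrp2 was 51.6, 42.1 and 59.1 CPM in XY against 73.9, 41.6 and 41 CPM in XX. Wild-type Flt4 was 33.2, 22.7 and 31.5 CPM in XY against 29.2, 29.4 and 29 CPM in XX. In 3bp-del heterozygotes Nrp2 was 82.1, 67.3 and 79.3 CPM in XY against 24.6, 37.1 and 37.7 CPM in XX, and in homozygotes 60.8, 62.3, 70.3, 53.1 and 57.1 CPM against 31.9, 33.9, 28.8, 28.5 and 30.9 CPM. The sexes did not overlap in either genotype. The log2 differences were 1.21 ± 0.17 (adjusted p = 0.00144) and 0.97 ± 0.08 (adjusted p = 4.98e-06) by edgeR. Flt4 differed by 0.49 ± 0.08 (adjusted p = 0.00237) and 0.65 ± 0.09 (adjusted p = 0.000262) by edgeR, with 31.6, 37.2, 38.7, 33.8 and 29.3 CPM in XY homozygotes. In 1bp-ins heterozygotes Nrp2 was 65.3, 70.5 and 76.4 CPM in XY against 24.7, 55.2 and 42 CPM in XX, a difference of 0.78 ± 0.28 (adjusted p = 0.0683), and Flt4 differed by 0.46 ± 0.18 (adjusted p = 0.085), neither called by edgeR. In 3bp-12bp-del homozygotes Nrp2 was 66.9, 58.7 and 67.1 CPM against 54.1, 39, 35.9, 48 and 54.3 CPM, a difference of 0.47 ± 0.14 (adjusted p = 0.0659), not called by edgeR.

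In 3bp-del homozygotes 11 members were higher in XY and 2 lower, where 31.8% of all genes tested were called, 16.7% higher and 15.1% lower. Besides Nrp2 and Flt4, Ephb4 differed by 0.52 ± 0.08 (adjusted p = 0.000498), Erg by 0.35 ± 0.08 (adjusted p = 0.00472) and Acvrl1 by 0.35 ± 0.09 (adjusted p = 0.0117) by edgeR, and Vegfc was lower in XY at -0.71 ± 0.16 (adjusted p = 0.00491). Gja5, the 1 connexin gene called in any comparison, was higher in XY by 0.92 ± 0.30 (adjusted p = 0.0402) with overlapping groups. Its call was lost by edgeR without replicate 1 or 3 of the XY group (0.82 and 0.67) and without any 1 XX library (0.78 to 1.01).

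In 3bp-del heterozygotes 6 members were higher in XY and 0 lower, where 29.6% of all genes were called, 15.9% higher and 13.8% lower, with Ramp2 at 0.72 ± 0.13 (adjusted p = 0.00379) and Apln at 0.62 ± 0.13 (adjusted p = 0.0061) by edgeR. In 1bp-ins heterozygotes 4 were higher and 6 lower, where 39.2% of all genes were called, 18.9% higher and 20.2% lower. Ramp2 was 0.65 ± 0.08 (adjusted p = 0.000276), Apln 0.52 ± 0.11 (adjusted p = 0.00471) and Vegfc -1.11 ± 0.25 (adjusted p = 0.00666) by edgeR, and Nrp1 -0.52 ± 0.12 (adjusted p = 0.0101). The count of 10 was 16 without replicate 1 of the XX heterozygotes. In 1bp-ins homozygotes Ramp2 at 0.63 ± 0.12 (adjusted p = 0.00828) and Erg at 0.53 ± 0.12 (adjusted p = 0.0193) were the members called by edgeR, where 9.94% of all genes were, 3.54% higher and 6.4% lower, and the count of 2 was 4 without replicate 5 of the XX homozygotes. In 3bp-12bp-del homozygotes Ephb4 at 0.26 ± 0.06 (adjusted p = 0.0232) and Flt4 at 0.28 ± 0.08 (adjusted p = 0.0499) were called by edgeR, where 10.4% of all genes were, 5.28% higher and 5.14% lower, and this count of 2 was 0 or 1 without any library of either sex except replicate 5 of XX.

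The unequal difference from wild type in the sexes was tested as an interaction, XX effect minus XY effect. For 3bp-del homozygotes 1 member was positive and 5 negative, where 3.83% of all genes tested were called, 2.07% positive and 1.75% negative. Besides Efnb2 these were Nrp2 at -1.03 ± 0.24 (adjusted p = 0.0285), Unc5b at -0.95 ± 0.25 (adjusted p = 0.0461), Tek at -0.72 ± 0.19 (adjusted p = 0.0442), Flt4 at -0.67 ± 0.17 (adjusted p = 0.0385) and Acvrl1 at -0.65 ± 0.14 (adjusted p = 0.0227) by edgeR. For 1bp-ins homozygotes Efnb2 was the 1 member called, where 1.04% of all genes were, and for 3bp-12bp-del homozygotes 0 members were by edgeR, where 0.597% were, with 1 member called by DESeq2. With the length trend removed the 3bp-del calls of Nrp2, at -0.78 ± 0.23 (adjusted p = 0.0627), and of Flt4, at -0.43 ± 0.18 (adjusted p = 0.179), were lost by edgeR. These fits use wild-type XY replicate 3. Without the 4 libraries, 12, 2 and 7 members were called for 3bp-del, 1bp-ins and 3bp-12bp-del, where 26%, 7.52% and 15.4% of all genes were called, with Efnb2 at 0.71 ± 0.18, 0.72 ± 0.12 and 0.70 ± 0.18, all called.

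Other vascular genes, 35 in a second list, were described in the same comparisons. The trend with length was not removed from the values of this list, and its part in them was not tested. In 3bp-del XX homozygotes 10 fell and 4 rose, where 23.1% of all genes tested were lower and 21.6% higher. In 1bp-ins homozygotes 7 fell and 3 rose, where 15.1% were lower and 17.2% higher, and in 3bp-12bp-del homozygotes 6 fell and 3 rose, where 11% were lower and 14.6% higher. Adgrl4, an adhesion receptor of endothelium, changed by -0.46 ± 0.09 in 1bp-ins, -0.63 ± 0.07 in 3bp-del and -0.36 ± 0.09 in 3bp-12bp-del homozygotes, all called. In the same order Calcrl, the receptor that Ramp2 partners, changed by -0.96 ± 0.08, -0.36 ± 0.10 and -0.32 ± 0.08, all called. Hey1, a Notch target of arterial endothelium, changed by 0.51 ± 0.11, 0.48 ± 0.10 and 0.50 ± 0.07, all called. Other Notch pathway genes of the list did not rise with it: the Notch ligand gene Dll4 differed by -0.12 ± 0.17, -0.31 ± 0.11 and -0.01 ± 0.13, Hey2 by -0.14 ± 0.35, -0.24 ± 0.22 and -0.33 ± 0.21, and the receptor gene Notch4 by -0.21 ± 0.12, -0.39 ± 0.12 and 0.12 ± 0.07. Of these, Dll4 and Notch4 were called, lower, in 3bp-del homozygotes alone. Relative to the median gene, length was 1.52 for Adgrl4, 1.62 for Calcrl, 1.58 for Dll4 and 1.79 for Notch4. It was 0.98 for Hey1 and 1.04 for Hey2. Dll4, Hey2, Notch4 and the 3bp-del values of Hey1 and Calcrl were chosen after their values were seen. Adm, the ligand of that receptor, was lower in XY than in XX gonads in all 6 genotypes, from -2.91 ± 0.19 in 1bp-ins heterozygotes to -1.94 ± 0.30 in 3bp-12bp-del homozygotes.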

How the data were processed

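RNA from whole gonads (140.0 ng per library, per the labels' protocols) was sequenced in 46 libraries. Per the submitters' processing notes the genome build was mm10, while the aligner and the quantifier are not given in these sources. The authors deposited estimated counts per gene, of which 8.00 to 8.90% per library were not whole, and TPM, a unit scaled by gene length and depth. A single column (1) of per-sample values in each table matched no sample here and was not used. Estimated counts were rounded and tested with edgeR 4.0.16 in R 4.3.3 (quasi-likelihood, robust, TMM, filterByExpr over the compared groups), with an adjusted p under 0.05 as a call. CPM is TMM-scaled, with a prior count of 2 for log2 CPM. Alternatives were DESeq2 1.42.0, RLE, no filter, all groups in 1 fit, a replicate block, each library left out, and fold changes with the trend on length removed (lowess span 0.3). The members and lists were chosen with earlier results of these data known. Any member could be named, Sox9 always, and of the other vascular genes and cell-type markers up to 4 called genes with the lowest adjusted p and up to 2 uncalled genes with the highest level per comparison. On simulated data for XX 1bp-ins homozygotes against wild type (16040 genes), edgeR recovered 42% of log2 changes of 0.5 and 84% of log2 changes of 1. DESeq2 recovered 59% and 92%, with 44 false calls against 10 for edgeR. The changes were placed in well-counted genes alone. No length trend or neighbouring tissue was simulated, so recovery in the real data may differ. In none of 20 comparisons did every pair of same-numbered libraries correlate above 0.1, though some pairs did, so the numbers were not treated as pairs. Figures used Python 3.11.15, pandas 2.3.3 and matplotlib 3.10.9.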

Additional observations from a re-analysis of the deposited data

Results flagged for a closer look

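Within groups of 5 libraries, 14 of 170 tests of a single library far from the others passed, 8.24%, where chance gives about 1 in 20 for independent tests. These tests share libraries, and the score is built from the members, so they are not independent. The share therefore cannot show an excess over chance. In replicate 5 of the XX 1bp-ins homozygotes S1pr1 was 36.4 CPM, Gja4 27.2 CPM and the arterial minus general score 0.465, each the highest of its group, and this library also had the highest Amh of its group. In replicate 4 of the XX 3bp-del homozygotes, the library of that group with the highest summed mesonephros level at 119 CPM, Cdh5 was 99.1, Ecscr 9.11, S1pr1 16.6 and Acvrl1 23.4 CPM. In replicate 3 of the same group Angpt2 was 0.863 CPM. In replicate 2 of the XX 3bp-12bp-del homozygotes Gja5 was 4.11 and Angpt1 3.29 CPM. In XY gonads, Esam was 41.1 CPM in replicate 2 and the score -0.119 in replicate 3 of the 1bp-ins homozygotes, and Fli1 was 21.2 CPM in replicate 4 and Efnb2 126.6 CPM in replicate 1 of the 3bp-del homozygotes. The part of neighbouring tissue in these values was not tested.

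The difference from wild type differed between the sexes, by the interaction in edgeR, for Efnb2 at 0.92 in 1bp-ins homozygotes. In 3bp-del homozygotes it did so for Efnb2 at 0.91, Nrp2 at -1.03, Unc5b at -0.95, Tek at -0.72, Flt4 at -0.67 and Acvrl1 at -0.65.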

How the results depend on the processing

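Of 97 calls of single members, refitted 1370 times under the alternatives, 1139 refits kept the call, 231 lost it and 0 reversed its direction. DESeq2 and the RLE normalization each kept all 97, the fit without a filter kept 89 and lost 8, and the length-corrected fit kept 68 and lost 29. The fit of all groups lost the most, 30, and kept 67, the replicate block kept 74 and lost 23, and the fit without the 4 libraries kept 63 and lost 13. With DESeq2, the members called were 6 for wild-type XY against wild-type XX, 5 for XX 3bp-del heterozygotes against wild-type XX, 10 for XX 3bp-12bp-del homozygotes against wild-type XX, 1 for XY 3bp-del homozygotes against wild-type XY, 5 for XX 1bp-ins homozygotes against XX 1bp-ins heterozygotes, 4 for XY 3bp-del homozygotes against XY 3bp-del heterozygotes, 4 for XY 3bp-12bp-del homozygotes against XX 3bp-12bp-del homozygotes, 2 for the 1bp-ins interaction, 1 for the 3bp-12bp-del interaction and 12 for the 3bp-del interaction. With all groups in the fit, the members called were 4 for wild-type XY against wild-type XX, 0 for XX 3bp-del heterozygotes against wild-type XX, 1 for XX 3bp-12bp-del homozygotes against wild-type XX, 2 for XY 1bp-ins homozygotes against wild-type XY, 4 for XX 1bp-ins homozygotes against XX 1bp-ins heterozygotes, 1 for XY 1bp-ins homozygotes against XY 1bp-ins heterozygotes, 4 for XY 1bp-ins homozygotes against XX 1bp-ins homozygotes, 0 for XY 3bp-12bp-del homozygotes against XX 3bp-12bp-del homozygotes, 1 for the 3bp-12bp-del interaction and 10 for the 3bp-del interaction. With the length trend removed, the members called were 5 for wild-type XY against wild-type XX, 6 for XX 1bp-ins homozygotes against wild-type XX, 2 for XX 3bp-del heterozygotes against wild-type XX, 13 for XX 3bp-del homozygotes against wild-type XX, 0 for XY 1bp-ins homozygotes against XY 1bp-ins heterozygotes, 1 for XY 3bp-12bp-del homozygotes against XX 3bp-12bp-del homozygotes and 1 for the 3bp-12bp-del interaction. With no filter on low counts, the members called were 1 for XY 3bp-12bp-del homozygotes against XX 3bp-12bp-del homozygotes. Without the 4 libraries with the most neighbouring-tissue or adrenal signal, an alternative chosen after seeing the data, the members called were 15 for wild-type XY against wild-type XX, 7 for XX 1bp-ins homozygotes against wild-type XX, 3 for XX 3bp-del heterozygotes against wild-type XX, 3 for XX 3bp-12bp-del homozygotes against wild-type XX, 2 for the 1bp-ins interaction, 7 for the 3bp-12bp-del interaction and 12 for the 3bp-del interaction. Replicate numbers were not treated as pairs: in 0 of 20 comparisons did every pair of same-numbered libraries correlate above 0.1. Some pairs did, 3 of 5 for XY against XX 1bp-ins homozygotes, so the check cannot show that no libraries were paired. With the replicate number as a block, the members called were 1 for wild-type XY against wild-type XX, 4 for XX 1bp-ins homozygotes against XX 1bp-ins heterozygotes, 6 for XY 1bp-ins homozygotes against XX 1bp-ins homozygotes and 2 for the 3bp-del interaction, and the counts in the other comparisons stayed within 1.5 times. In the 3bp-del interaction the block lost the calls of Nrp2 (adjusted p = 0.0558 by edgeR), Tek (0.0682), Flt4 (0.0588) and Acvrl1 (0.0581). With the median over each list, the arterial minus general difference was -0.27 for wild-type XY against wild-type XX, -0.13 for XX 1bp-ins heterozygotes against wild-type XX, -0.68 for XX 1bp-ins homozygotes against wild-type XX, -0.16 for XX 3bp-del heterozygotes against wild-type XX, -0.71 for XX 3bp-del homozygotes against wild-type XX, -0.27 for XX 3bp-12bp-del homozygotes against wild-type XX, -0.23 for XY 1bp-ins heterozygotes against wild-type XY, -0.68 for XY 1bp-ins homozygotes against wild-type XY, -0.18 for XY 3bp-del heterozygotes against wild-type XY and -0.28 for XY 3bp-del homozygotes against wild-type XY. With Gja4, Gja5 and Efnb2 alone, the arterial minus general difference was 0.24 for wild-type XY against wild-type XX, 0.21 for XX 1bp-ins heterozygotes against wild-type XX, 0.58 for XX 1bp-ins homozygotes against wild-type XX, 0.080 for XX 3bp-del heterozygotes against wild-type XX, 0.23 for XX 3bp-del homozygotes against wild-type XX, 0.27 for XX 3bp-12bp-del homozygotes against wild-type XX, 0.22 for XY 1bp-ins heterozygotes against wild-type XY, 0.12 for XY 1bp-ins homozygotes against wild-type XY and 0.23 for XY 3bp-del heterozygotes against wild-type XY. With the length trend removed, the arterial minus general difference was -0.027 for XX 3bp-del homozygotes against wild-type XX. With each library left out in turn, the members called ran from 0 to 15 for wild-type XY against wild-type XX, from 5 to 14 for XX 1bp-ins homozygotes against wild-type XX, from 1 to 3 for XX 3bp-del heterozygotes against wild-type XX, from 3 to 7 for XX 3bp-12bp-del homozygotes against wild-type XX, from 2 to 7 for XX 1bp-ins homozygotes against XX 1bp-ins heterozygotes, from 2 to 8 for XY 1bp-ins homozygotes against XY 1bp-ins heterozygotes, from 7 to 16 for XY 1bp-ins heterozygotes against XX 1bp-ins heterozygotes, from 2 to 4 for XY 1bp-ins homozygotes against XX 1bp-ins homozygotes and from 0 to 2 for XY 3bp-12bp-del homozygotes against XX 3bp-12bp-del homozygotes. Except where the construction of a fit shows it (fewer libraries), the cause was not tested. Depth was thinnest for Angpt2, which rested on as few as 6 estimated counts in 1 library.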

Other observations

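Other vascular genes outside the members also moved in these comparisons. In the XX homozygotes of 1bp-ins, of 3bp-del and of 3bp-12bp-del, in that order, Cxcr4, a chemokine receptor of arterial and sprouting endothelium that other cells share, changed by 0.51 ± 0.11 (adjusted p = 0.00958), 0.56 ± 0.09 (adjusted p = 0.000926) and 0.46 ± 0.11 (adjusted p = 0.0118) against wild type by edgeR. Clec14a, an endothelial lectin, differed by -0.58 ± 0.23 (adjusted p = 0.0818), -0.82 ± 0.11 (adjusted p = 0.000301) and -0.61 ± 0.18 (adjusted p = 0.0346) by edgeR, the first of which was not called. The 1bp-ins and 3bp-del values of Cxcr4 and the 1bp-ins and 3bp-12bp-del values of Clec14a were chosen after their values were seen. Length relative to the median gene was 0.63 for Cxcr4 and 1.94 for Clec14a. The trend with length was not removed from these values, and its part in them was not tested.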
